A study of Mus musculus with 6 samples.

Results

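The genes described here are 39 genes of fatty acid oxidation and lipid droplets, chosen by symbol from the 57010 genes of the deposited count table. All 39 were found there. They comprise 17 enzymes and electron carriers of mitochondrial beta-oxidation, 6 peroxisomal enzymes, 3 enzymes known from more than 1 compartment, 4 long-chain acyl-CoA synthetases, 2 nuclear receptors, 6 lipid droplet proteins and the extracellular enzyme lipoprotein lipase. Their poly(A) RNA was measured in RAW 264.7 cells, a mouse macrophage line transformed by a leukaemia virus. All cells of both groups had been given lipopolysaccharide (LPS), a bacterial cell wall component that drives macrophages into an inflammatory state. In the hypoxic-EV group (3 samples) they then received extracellular vesicles (EVs) from tendon stem cells preconditioned in hypoxia, and in the normoxic-EV group (3 samples) EVs from tendon stem cells kept in normoxia. Doses, times, the species of the stem cells and the number of separate cultures were not given in the sources used here. The p-values therefore measure only how far these samples spread, which may be technical. Cells without vesicles were not analysed here.

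Cells store fatty acids as triglyceride in lipid droplets and burn them by beta-oxidation. A fatty acid is first joined to coenzyme A by an acyl-CoA synthetase, passes the inner mitochondrial membrane as a carnitine ester, and is then shortened by repeated rounds of dehydrogenation, hydration, a further dehydrogenation and thiolysis. Peroxisomes run a parallel pathway for very long and branched chains and hand shortened products to mitochondria. In macrophages, LPS is known to favour glycolysis and droplet storage, whereas alternatively activated cells are known for fatty acid oxidation.

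Library totals ran from 16751665 to 23422328 counts in hypoxic-EV and from 16788467 to 22514707 counts in normoxic-EV. Of 10 macrophage markers 9 passed the count filter, and their summed level was 8495 to 8895 CPM (counts scaled to the library total) in hypoxic-EV and 10510 to 10950 CPM in normoxic-EV. Most of that sum was Lyz2, which averaged 6091 CPM in hypoxic-EV and 7946 CPM in normoxic-EV. Of the 9 markers that passed, Csf1r and Itgam were called higher and 6 lower in hypoxic-EV, and Cd68 was not called. The part of such shifts in the results below was not tested. None of 13 tendon and stromal markers passed the filter, 6 of them had 0 counts in every library, and their sum was 1.21 to 1.65 CPM in hypoxic-EV and 1.02 to 2.45 CPM in normoxic-EV. The sum of 8 adipocyte markers, of which only Lipe passed the filter and Lep was at 0 in every library, was 7.49 to 9.04 CPM in hypoxic-EV and 8.91 to 10.5 CPM in normoxic-EV. Of the lymphocyte markers, Cd3e and Nkg7 had 0 counts in every library, and Cd79a passed the filter, with 47 counts over the hypoxic-EV libraries and 17 over the normoxic-EV libraries (log2 fold change 1.36, SE 0.399, adjusted p = 0.00849 by edgeR), and its part in the results was not tested either. In bulk RNA, fewer cells of a type and less RNA per cell cannot be told apart.

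Among the 39 genes, 11 of the 16 tested mitochondrial beta-oxidation genes, led by Cpt1a, were higher in macrophages given hypoxic-EV than in macrophages given normoxic-EV, and none of the 6 lipid droplet protein genes was called higher. Neither pattern was seen in the lists of other genes. Of the mitochondrial oxidation genes listed outside the 39, 4 of 23 tested were called higher and 5 lower. Of the other droplet genes, 6 of 26 were called higher and 8 lower. That mitochondrial list is broader than beta-oxidation and includes thioesterases and enzymes of amino acid breakdown. Its counts therefore do not speak for beta-oxidation alone. Of 39 genes, 36 passed the filter on low counts, and Decr1, Ehhadh and Pparg did not. Of those 36, 16 rose and 5 fell, judged by edgeR's quasi-likelihood test with a threshold of 0.05 on the adjusted p, that is 44.4% higher and 13.9% lower, against 22.7% higher and 21.5% lower among all 13303 genes tested. In either direction the shares called were 58.3% of the 36 and 44.2% of all genes. Their median log2 fold change was 0.13, against -0.001 for all genes tested, and the median absolute value was 0.22, against 0.21. The groups did not overlap in 23 of the 36 (63.9%), against 52.8% of all genes. Most changes were small: 7 of the 36 (19.4%) were called with an absolute log2 fold change of at least 0.5, against 14.5% of all genes. The members were chosen with earlier results of these data known, so these shares describe them and are not a test of the list.

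**Figure D1:**
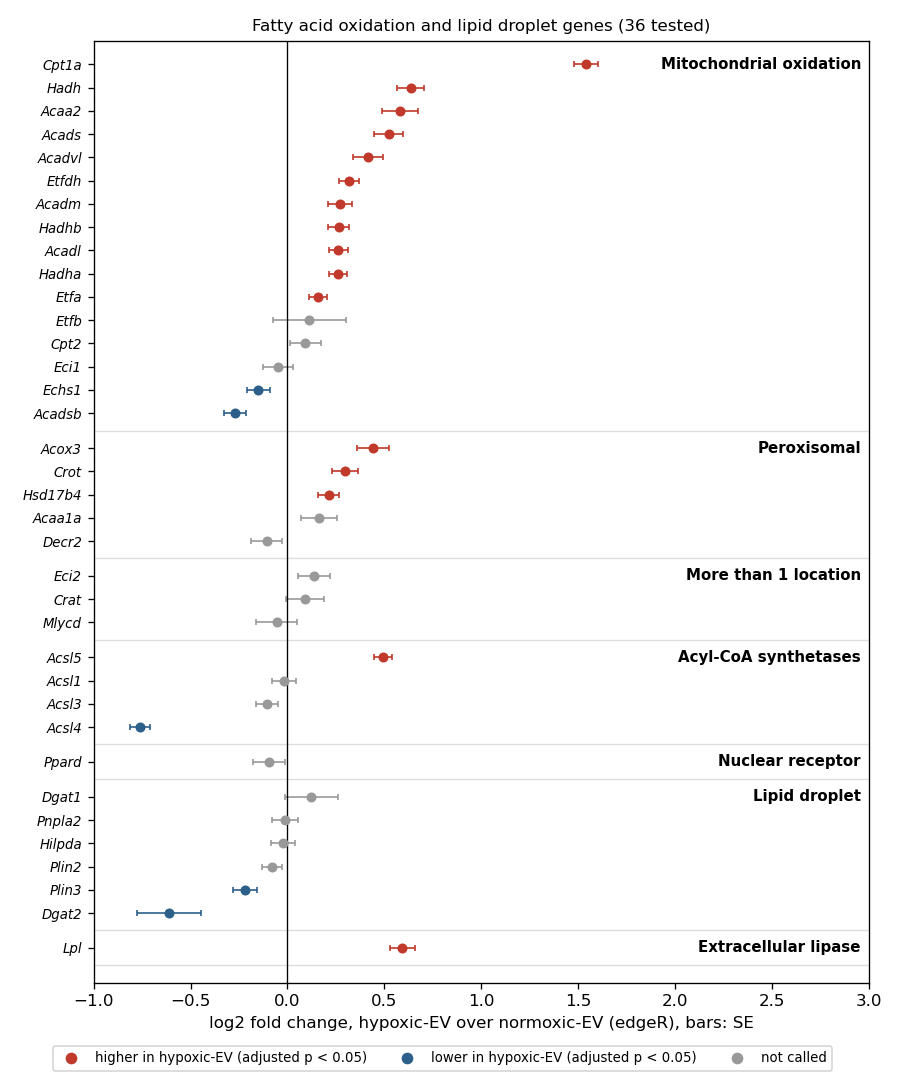
Log2 fold change (hypoxic-EV over normoxic-EV, horizontal axis) with SE bars for the 36 tested genes, ordered within each role and coloured by the edgeR call. Cpt1a stands alone at 1.54, 10 further mitochondrial genes lie between 0.16 and 0.64, and droplet genes lie at or near 0 apart from Plin3 and Dgat2.

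Mitochondrial enzymes were compared with peroxisomal enzymes and droplet proteins by their counts and medians. Of 16 tested mitochondrial genes, 11 rose, 2 fell and 3 were not called (median log2 fold change 0.26). Of 5 tested peroxisomal genes, 3 rose, 0 fell and 2 were not called (median 0.21). Of 6 droplet protein genes, 0 rose, 2 fell and 4 were not called (median -0.05). The summed level per length of the 17 mitochondrial genes was 301.4 to 311 FPKM (counts scaled to gene length and library total) in the hypoxic-EV libraries and 256.3 to 261.5 FPKM in the normoxic-EV libraries, with no overlap. That of the 6 peroxisomal genes was 39.0 to 42.5 FPKM in hypoxic-EV and 36.4 to 37.2 FPKM in normoxic-EV, also with no overlap. That of the 6 droplet genes was 347.7 to 372.6 FPKM in hypoxic-EV and 354.5 to 401.8 FPKM in normoxic-EV, with overlap. Few genes carried these sums. Etfa and Acadl, averaging 107.8 and 71.1 FPKM in hypoxic-EV, made up most of the mitochondrial sum. Plin2 and Hilpda, averaging 246.3 and 85.3 FPKM in hypoxic-EV, made up most of the droplet sum. Whether the classes differ from each other was not tested.

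Cpt1a encodes carnitine palmitoyltransferase 1A of the outer mitochondrial membrane, which makes the carnitine esters and is the step at which malonyl-CoA restrains fatty acid entry (ENSMUSG00000024900, chromosome 19, 3372334 to 3435733, GRCm39, plus strand). It stood at 69.0, 70.4 and 66.9 CPM in hypoxic-EV replicates 1 to 3, against 22.7, 24.5 and 23.7 CPM in normoxic-EV replicates 1 to 3. Every hypoxic-EV library was far above every normoxic-EV library. The fold change was 2.91 (log2 1.54, SE 0.0619, n = 3 per group, adjusted p = 6.98e-14 by edgeR), and without each library in turn it ran from 1.52 to 1.57 on the log2 scale. Cpt1a was the only one of the 39 genes in the authors' deposited table of 462 changed genes, where its log2 fold change was 1.54. That table holds no gene with an absolute log2 fold change under 1.

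Cpt2 encodes the partner enzyme on the inner membrane, which turns the carnitine esters back into acyl-CoA. It had 18.5, 19.0 and 18.8 CPM in hypoxic-EV and 18.3, 17.7 and 17.1 CPM in normoxic-EV and was not called (log2 fold change 0.09, SE 0.0793, adjusted p = 0.372 by edgeR), although the groups did not overlap. Per length, Cpt1a was at 1.17, 1.16 and 1.11 times the FPKM of Cpt2 in hypoxic-EV and at 0.389, 0.433 and 0.434 times in normoxic-EV. The side of 1 on which these ratios fall depends on the lengths of 7642 bases for Cpt1a and 2391 bases for Cpt2 that the deposited values imply, since in CPM Cpt1a was above Cpt2 in every library of both groups. The other isoform genes, Cpt1b and Cpt1c, had 10 and 17 counts over the hypoxic-EV libraries and 25 and 27 over the normoxic-EV libraries and were below the filter.

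The 250 bases before the RefSeq start of Cpt1a (chr19:3323051-3323300, GRCm38.p6, plus strand) are shown because this gene moved most. Capitals mark matches on either strand to the GC box GGGCGG and to the CCAAT box, general elements of mammalian promoters.
Cpt1a: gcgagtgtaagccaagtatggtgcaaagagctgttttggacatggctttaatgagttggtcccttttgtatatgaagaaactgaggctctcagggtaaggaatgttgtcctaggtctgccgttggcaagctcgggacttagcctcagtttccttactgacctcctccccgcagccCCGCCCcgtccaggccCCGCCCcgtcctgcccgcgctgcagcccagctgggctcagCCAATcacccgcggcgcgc
The window held 2 GC boxes, beginning 75 and 59 bases before the start, and a CCAAT box beginning 19 bases before it.

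Of the 39 genes, 32 had a promoter in the RefSeq table. A GC box lay in 75.0% of them, against 63.0% of the 9569 tested genes with a promoter and 35.4% of all 27025 genes with a promoter. A CCAAT box lay in 53.1% of them, against 41.1% of tested genes and 37.5% of all. The element of the peroxisome proliferator-activated receptors (PPARs), a direct repeat of AGGTCA with 1 free base between the copies, and a looser repeat of AGGNCA that includes it, were in none of the 32 windows and in 0.0418% and 0.272% of tested genes (0.0407% and 0.400% of all). The estrogen-related receptor element TCAAGGTCA, which shares the run AGGTCA with the direct repeat, was in none of the 32, in 0.314% of tested genes and in 0.422% of all. The form ACGTG of the hypoxia response element core was in 3 of the 32 (9.38%), those of Acadvl, Hilpda and Ppard, against 25.5% of tested genes and 18.5% of all. The core's other form, GCGTG, was not searched, although it occurs in the windows of Hadh and Acsl4 printed here. These shares therefore do not cover the whole element. All motifs were searched on both strands of 250 bases, and a match or its lack describes the letters of these windows only.

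Acyl-CoA dehydrogenases carry out the opening step of each round and differ in the chain length they accept. All 4 tested for straight chains rose. Acads, for short chains, had 30.5, 29.0 and 29.7 CPM in hypoxic-EV and 21.4, 18.8 and 21.8 CPM in normoxic-EV, a log2 fold change of 0.52 (SE 0.0752, adjusted p = 8.28e-06 by edgeR). Acadvl, for very long chains, averaged 31.6 ± 2.74 CPM in hypoxic-EV and 23.6 ± 1.02 CPM in normoxic-EV (SD, n = 3, log2 fold change 0.42, adjusted p = 0.000144 by edgeR). Neither gene's groups overlapped. Acadvl overlaps Dvl2 of the opposite strand, which had 134% of its total count and a log2 fold change of -0.27, so reads of the overlap cannot be assigned with certainty.

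Acadl and Acadm, for long and medium chains, rose by less, with log2 fold changes of 0.26 and 0.27 (adjusted p = 0.000137 and 0.00132 by edgeR). Acadl was the most abundant dehydrogenase of the family per length, at 71.1 ± 3.22 FPKM in hypoxic-EV and 59.2 ± 0.378 FPKM in normoxic-EV (SD, n = 3). Acadsb, which acts on short branched acyl-CoA from isoleucine breakdown, went the other way. It had 49.1, 55.4 and 53.8 CPM in hypoxic-EV and 62.8, 62.9 and 65.6 CPM in normoxic-EV, with no overlap (log2 fold change -0.27, SE 0.0582, adjusted p = 0.000691 by edgeR).

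The next steps of the spiral also rose except for the hydratase Echs1. Hadh, the short- and medium-chain 3-hydroxyacyl-CoA dehydrogenase, had 31.9, 31.1 and 30.9 CPM in hypoxic-EV and 20.2, 20.6 and 19.6 CPM in normoxic-EV. Its libraries lay close together within each group and far apart between them (log2 fold change 0.64, SE 0.0699, n = 3 per group, adjusted p = 2.22e-07 by edgeR). Acaa2, the mitochondrial thiolase that releases acetyl-CoA, had 16.9, 16.9 and 18.7 CPM in hypoxic-EV and 11.6, 11.0 and 12.5 CPM in normoxic-EV, again without overlap (log2 fold change 0.58, SE 0.0924, adjusted p = 2.92e-05 by edgeR).

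Of the next sequences, that of Hadh (chr3:131272102-131272351, GRCm38.p6, minus strand) is shown as the promoter of the mitochondrial gene with the largest increase after Cpt1a. That of Hadhb (chr5:30155003-30155252, plus strand) is shown because it lies between the divergent starts of Hadhb and Hadha, which are 273 bases apart in RefSeq. This second choice was made after the values were seen. Capitals again mark GC and CCAAT boxes on either strand.
Hadh: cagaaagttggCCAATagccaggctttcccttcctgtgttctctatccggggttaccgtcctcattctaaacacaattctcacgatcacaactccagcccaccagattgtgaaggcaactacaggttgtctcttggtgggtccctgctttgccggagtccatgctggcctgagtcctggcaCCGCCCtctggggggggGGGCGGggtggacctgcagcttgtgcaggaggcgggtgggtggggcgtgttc
Hadhb: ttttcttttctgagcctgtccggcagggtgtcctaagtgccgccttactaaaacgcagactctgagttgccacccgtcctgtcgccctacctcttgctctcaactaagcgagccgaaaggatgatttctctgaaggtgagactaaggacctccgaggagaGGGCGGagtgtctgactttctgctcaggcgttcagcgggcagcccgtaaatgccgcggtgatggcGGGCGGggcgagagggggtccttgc
Both windows held 2 GC boxes, and only the window of Hadh held a CCAAT box, beginning 239 bases before the start.

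Hadha and Hadhb encode the subunits of the mitochondrial trifunctional protein, which performs the last 3 steps on long chains. They rose by nearly the same amount, with log2 fold changes of 0.26 (SE 0.0469) and 0.27 (SE 0.0549) and adjusted p = 0.000125 and 0.000487 by edgeR. Hadha had 125, 130.0 and 132 CPM in hypoxic-EV and 107, 107 and 109 CPM in normoxic-EV. Hadhb had 65.4, 63.7 and 65.2 CPM in hypoxic-EV and 55.1, 51.3 and 55.1 CPM in normoxic-EV. Per length, Hadha stood at 1.51 ± 0.0514 times the FPKM of Hadhb in hypoxic-EV and at 1.52 ± 0.0570 times in normoxic-EV (SD, n = 3), so the ratio differed by less than its spread.

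Echs1, the short-chain enoyl-CoA hydratase, was the member nearest the threshold. It had 46.7, 49.6 and 50.1 CPM in hypoxic-EV and 56.6, 52.2 and 54.0 CPM in normoxic-EV (log2 fold change -0.15, SE 0.0585, adjusted p = 0.0416 by edgeR). The groups did not overlap, but their nearest libraries lay close together, and Paox, of the opposite strand, overlaps the gene with 13.7% of its total count. The call ended with DESeq2 (adjusted p = 0.102), and in edgeR without a filter on low counts (0.141), with the replicate number as a block (0.0623), without hypoxic-EV replicate 1 (0.143) or 3 (0.0549) and without normoxic-EV replicate 1 (0.18) or 3 (0.0902).

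Auxiliary enzymes rearrange the double bonds of unsaturated fatty acids so that they can enter the spiral. Eci1, a mitochondrial isomerase gene, had 18.9, 17.8 and 17.7 CPM in hypoxic-EV and 18.9, 18.4 and 18.8 CPM in normoxic-EV, with overlapping groups (log2 fold change -0.05, SE 0.0791, adjusted p = 0.653 by edgeR). Decr1, the mitochondrial 2,4-dienoyl-CoA reductase gene, had 0 counts in each hypoxic-EV library and 1 count over the normoxic-EV libraries. A count of 3, the limit that a count of 0 allows, corresponds to 0.128 to 0.179 CPM depending on the library, a limit that covers counting error only. By the deposited coordinates no gene with a count overlaps Decr1. Overlapping genes with 0 counts were not part of that check. Whether reads shared with such a gene went uncounted was not tested, so the level of Decr1 is uncertain.

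Electrons from the dehydrogenases pass to the electron transfer flavoprotein, a dimer encoded by Etfa and Etfb, and on to ubiquinone through the enzyme encoded by Etfdh. Etfdh rose, with 72.9, 75.9 and 74.1 CPM in hypoxic-EV and 57.7, 61.1 and 60.0 CPM in normoxic-EV (log2 fold change 0.32, SE 0.0524, adjusted p = 4.39e-05 by edgeR). The gene 4930579G24Rik of the opposite strand, with 36.2% of its total count, also rose (0.57), so the reads of the overlap cannot be assigned with certainty. Etfa rose slightly, to 195, 204 and 195 CPM in hypoxic-EV, against 183, 173 and 178 CPM in normoxic-EV (log2 fold change 0.16, SE 0.0461, adjusted p = 0.00815 by edgeR). Without normoxic-EV replicate 2 that call ended (0.13, adjusted p = 0.0683).

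The dimer partners stood far apart in level. Per length, Etfa averaged 107.8 ± 2.40 FPKM in hypoxic-EV and 96.7 ± 2.53 FPKM in normoxic-EV, and Etfb 2.37 ± 0.242 FPKM in hypoxic-EV and 2.17 ± 0.303 FPKM in normoxic-EV (SD, n = 3). Etfb was not called (log2 fold change 0.11, SE 0.189, adjusted p = 0.663 by edgeR). On the same strand Etfb overlaps almost wholly with another annotated protein-coding gene, Etfbl, which had 0 counts in every library. The sources used here do not say how reads shared by both were counted, so the level of Etfb is uncertain.

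Of the peroxisomal genes, Acox3, Crot and Hsd17b4 rose. Acox3, an acyl-CoA oxidase gene acting on branched chains, had 23.0, 22.9 and 20.5 CPM in hypoxic-EV and 16.1, 16.5 and 16.3 CPM in normoxic-EV (log2 fold change 0.44, SE 0.0808, adjusted p = 0.000141 by edgeR). Its groups were well apart, and per length it was among the least abundant tested members, at 1.92 ± 0.135 FPKM in hypoxic-EV and 1.41 ± 0.0201 FPKM in normoxic-EV (SD, n = 3). Crot, which encodes the octanoyltransferase that prepares shortened chains for export to mitochondria, and Hsd17b4, the bifunctional enzyme for branched and very long chains, had log2 fold changes of 0.30 and 0.21 (adjusted p = 0.00115 and 0.00289 by edgeR). The pseudogene Cd63-ps lies within Hsd17b4 on the same strand, at 46.7% of its total count, and fell (-0.38).

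Acaa1a, a peroxisomal thiolase gene, had 37.4, 27.1 and 37.1 CPM in hypoxic-EV and 30.9, 30.4 and 29.4 CPM in normoxic-EV. Hypoxic-EV replicate 2 lay below all normoxic-EV libraries and the other two hypoxic-EV libraries above them, and the gene was not called (log2 fold change 0.16, SE 0.0932, adjusted p = 0.162 by edgeR). Without that library it was called higher (0.31, adjusted p = 0.00055). Myd88, of the opposite strand, overlaps Acaa1a, with 148% of its total count and a log2 fold change of -0.28. Decr2, the peroxisomal counterpart of Decr1, was not called (-0.11, SE 0.0816, adjusted p = 0.302 by edgeR). Ehhadh, the other bifunctional enzyme, had 1 count over the hypoxic-EV libraries and 6 over the normoxic-EV libraries, with at most 3 in any library.

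None of the 3 genes whose enzymes are known from more than 1 compartment was called. Eci2, an isomerase gene, had 21.8, 22.8 and 23.3 CPM in hypoxic-EV and 18.0, 22.8 and 20.9 CPM in normoxic-EV (log2 fold change 0.14, SE 0.0850, adjusted p = 0.202 by edgeR). Crat, the carnitine acetyltransferase gene, had 21.6, 20.7 and 22.1 CPM in hypoxic-EV and 22.5, 22.1 and 16.4 CPM in normoxic-EV, where replicate 3 stood low (0.09, SE 0.0984, adjusted p = 0.479 by edgeR). Dolpp1, of the opposite strand, overlaps it with 44.3% of its total count. Mlycd, whose enzyme removes malonyl-CoA, had -0.06 (SE 0.106, adjusted p = 0.706 by edgeR).

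**Figure D2:**
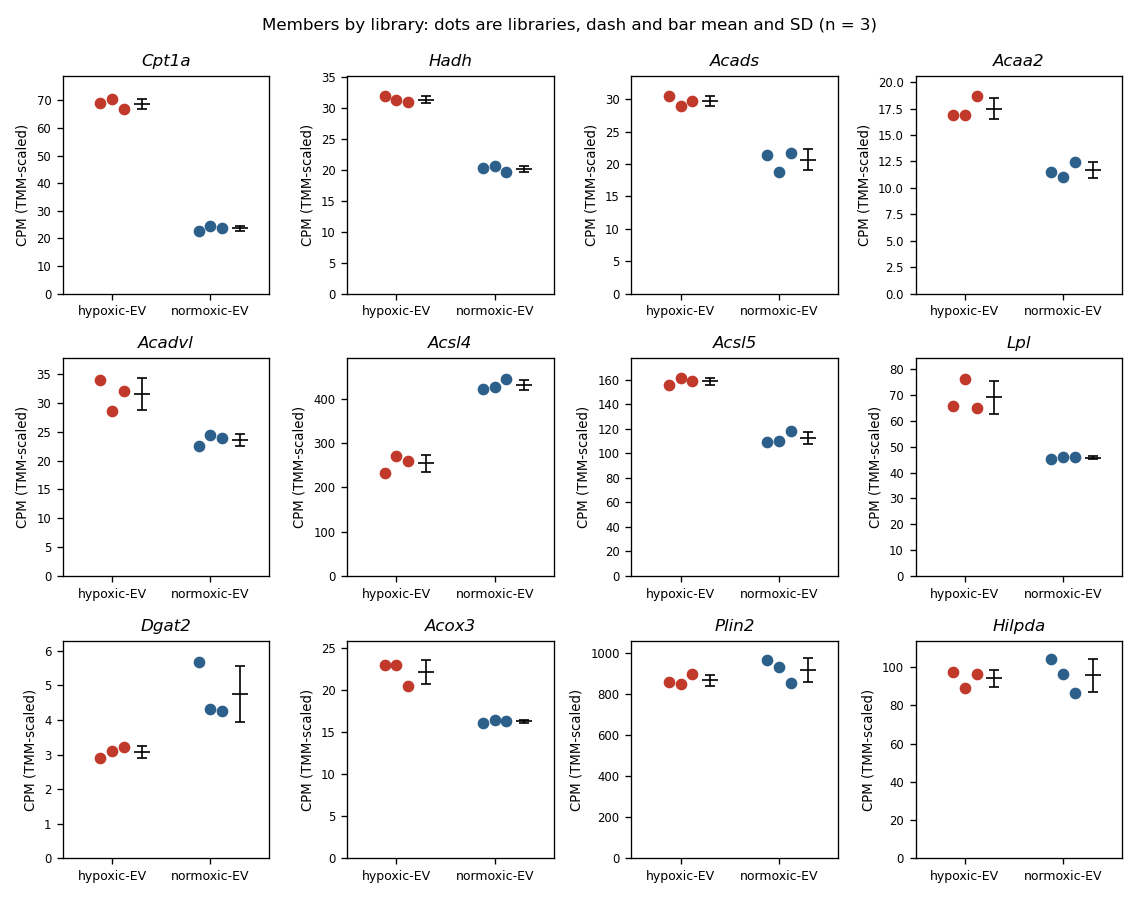
TMM-scaled CPM (vertical axes from 0) of 12 genes in each library, hypoxic-EV left and normoxic-EV right, with mean and SD beside the dots. The groups are apart for Cpt1a, Hadh, Acads, Acaa2, Acadvl, Acsl4, Acsl5, Lpl, Dgat2 and Acox3 and overlap for Plin2 and Hilpda.

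The 4 long-chain acyl-CoA synthetase genes, whose enzymes activate fatty acids, moved in different directions. Acsl4, which prefers arachidonic acid and other polyunsaturated chains, had 232, 272 and 259 CPM in hypoxic-EV, against 422, 428 and 445 CPM in normoxic-EV (ENSMUSG00000031278, chromosome X, 141100989 to 141173531, GRCm39, minus strand). Every hypoxic-EV library was well below every normoxic-EV library, a 1.70-fold decrease (log2 fold change -0.76, SE 0.0529, n = 3 per group, adjusted p = 2.27e-10 by edgeR). Acsl5, known from mitochondria and endoplasmic reticulum, rose, with 156, 161 and 159 CPM in hypoxic-EV and 109, 110.3 and 118 CPM in normoxic-EV (0.49, SE 0.0485, adjusted p = 4.5e-08 by edgeR). Zdhhc6, of the opposite strand, overlaps Acsl5 with 73.5% of its total count and was not called (-0.08).

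The promoter of Acsl4 (chrX:142390536-142390785, GRCm38.p6, minus strand) is shown because this gene fell most among those tested, with GC boxes in capitals.
Acsl4: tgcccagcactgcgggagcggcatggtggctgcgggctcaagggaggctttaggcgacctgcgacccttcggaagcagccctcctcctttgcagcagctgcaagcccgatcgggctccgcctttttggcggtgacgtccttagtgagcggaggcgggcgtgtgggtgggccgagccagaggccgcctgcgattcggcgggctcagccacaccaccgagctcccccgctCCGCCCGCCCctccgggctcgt
The window held 2 overlapping GC boxes, beginning 22 and 18 bases before the start, and no CCAAT box.

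Acsl4 was the most abundant of the 4 per length in both groups. It stood at 1.34, 1.51 and 1.47 times the FPKM of Acsl5 in hypoxic-EV and at 3.48, 3.49 and 3.38 times in normoxic-EV, with no overlap. Acsl3, a droplet-associated synthetase gene, averaged 67.0 ± 3.77 CPM in hypoxic-EV and 72.1 ± 1.70 CPM in normoxic-EV (SD, n = 3) and was not called (log2 fold change -0.11, adjusted p = 0.125 by edgeR). Without hypoxic-EV replicate 2 it was called lower (-0.15, adjusted p = 0.032), and Utp14b overlaps it on the same strand at 19.4% of its total count. Acsl1, a synthetase gene of the endoplasmic reticulum and mitochondrial surface, had 46.5 ± 1.78 CPM in hypoxic-EV and 47.2 ± 2.78 CPM in normoxic-EV (-0.02, SE 0.0626, adjusted p = 0.864 by edgeR).

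The lipid droplet coat gene Plin2 was the most abundant of all 39 genes per length, at 246.3 ± 7.12 FPKM in hypoxic-EV and 260.2 ± 15.9 FPKM in normoxic-EV (SD, n = 3). It had 855, 846 and 897 CPM in hypoxic-EV and 964, 929 and 852 CPM in normoxic-EV, with overlap (log2 fold change -0.08, SE 0.0503, adjusted p = 0.217 by edgeR). Plin3, which coats small and newly formed droplets, fell. It had 44.0, 39.3 and 41.9 CPM in hypoxic-EV and 49.4, 49.2 and 47.4 CPM in normoxic-EV, without overlap (log2 fold change -0.22, SE 0.0617, adjusted p = 0.00596 by edgeR).

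The lipolysis genes were not called. Pnpla2 encodes the adipose triglyceride lipase, which starts triglyceride breakdown, and had 49.9, 43.3 and 51.4 CPM in hypoxic-EV and 48.0, 48.2 and 49.7 CPM in normoxic-EV (log2 fold change -0.01, SE 0.0658, adjusted p = 0.895 by edgeR). Hilpda encodes a hypoxia-inducible inhibitor of that lipase and came next in level per length after Plin2 and Etfa. It had 97.4, 88.9 and 96.2 CPM in hypoxic-EV and 104, 96.6 and 86.7 CPM in normoxic-EV (-0.02, SE 0.0609, adjusted p = 0.8 by edgeR). The groups overlapped for both genes.

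Dgat1 and Dgat2 encode unrelated enzymes for the last step of triglyceride synthesis. Dgat2 was low and fell, with 2.89, 3.11 and 3.23 CPM in hypoxic-EV and 5.68, 4.32 and 4.27 CPM in normoxic-EV, without overlap (log2 fold change -0.61, SE 0.165, n = 3 per group, adjusted p = 0.00469 by edgeR). It rested on 185 counts over the hypoxic-EV libraries and 265 over the normoxic-EV libraries. Without each library in turn, the log2 fold change of Dgat2 ran from -0.69 to -0.47, with adjusted p from 0.00564 to 0.0455 by edgeR. Dgat1 had 14.2, 9.14 and 11.7 CPM in hypoxic-EV and 11.9, 11.1 and 9.20 CPM in normoxic-EV, the widest spread within a group relative to its level among the droplet genes (0.12, SE 0.136, adjusted p = 0.487 by edgeR).

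Lpl encodes lipoprotein lipase, which macrophages secrete and which frees fatty acids from circulating lipoproteins. It had 65.9, 76.5 and 65.2 CPM in hypoxic-EV and 45.1, 46.2 and 46.2 CPM in normoxic-EV. All hypoxic-EV libraries lay above all normoxic-EV libraries, a fold change of 1.51 (log2 0.59, SE 0.0637, n = 3 per group, adjusted p = 1.66e-07 by edgeR).

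Of the PPAR genes, whose receptors sense fatty acids and activate many of the genes above, Pparg was all but undetected, with 1 count over the hypoxic-EV libraries and 0 over the normoxic-EV libraries. Ppard was expressed at 26.4, 22.4 and 26.0 CPM in hypoxic-EV and 27.9, 27.6 and 24.6 CPM in normoxic-EV, with overlap (log2 fold change -0.10, SE 0.0803, adjusted p = 0.358 by edgeR).

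**Figure D3:**
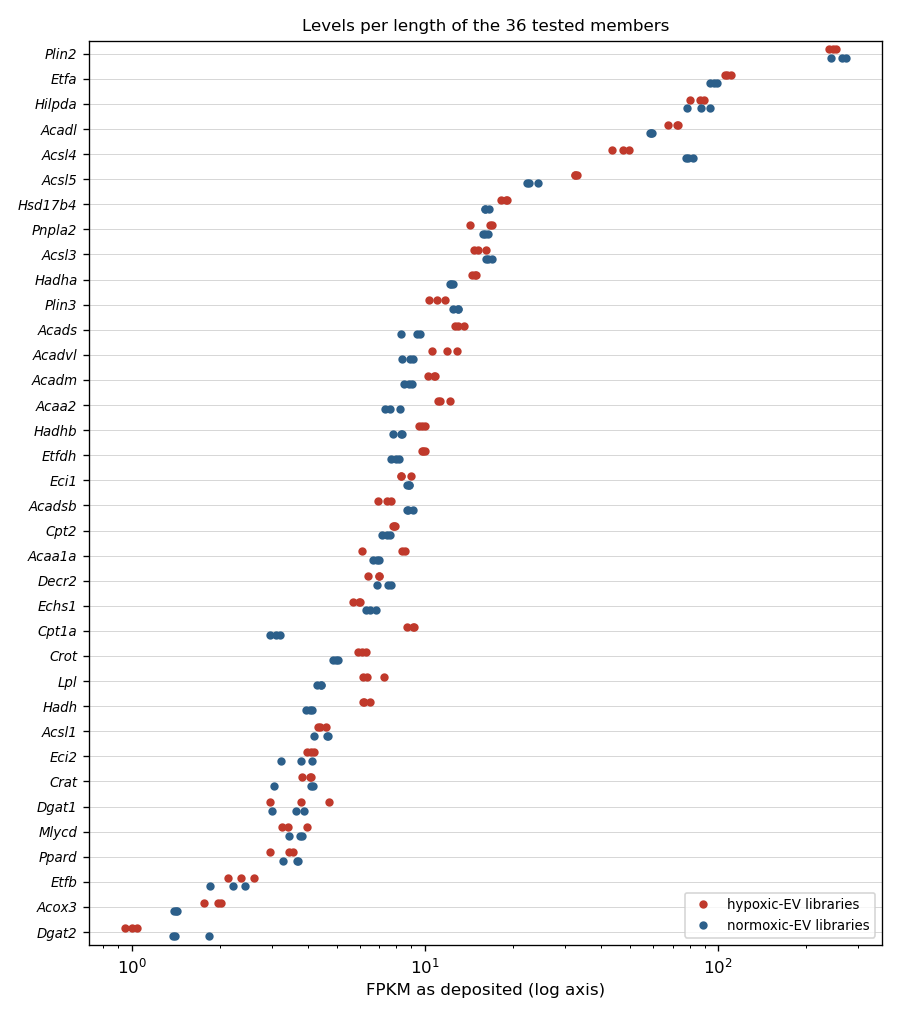
Deposited FPKM (log axis) of the 36 tested genes in each library, hypoxic-EV dots above normoxic-EV dots, in order of mean level. Plin2, Etfa and Hilpda lead, Dgat2 and Acox3 are lowest, and Cpt1a shows the widest separation of the groups.

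Levels per length spanned 0.997 to 246.3 FPKM in hypoxic-EV and 1.41 to 260.2 FPKM in normoxic-EV (group means of the 36 tested genes). FPKM divides by the length the authors used, which the deposited values imply to be 8730 bases for Hadha, 8286 bases for Echs1 and 2005 bases for Acadl. These are lengths of annotated gene models, and if transcripts in these cells are shorter, the levels of such genes are understated. Many neighbours in the middle of the order, such as Acads, Acadvl, Acadm and Acaa2 in hypoxic-EV (13.1 ± 0.467, 11.8 ± 1.13, 10.6 ± 0.323 and 11.5 ± 0.613 FPKM, SD, n = 3), differed by little more than their spread.

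Beyond the 39 genes, 163 further genes of the same and adjoining pathways were matched to the table, of which 137 were tested, 34 rose and 29 fell. They were called in 46.0%, near the 44.2% of all genes tested, and their median log2 fold change was 0.04. Of the 23 tested genes of the broader mitochondrial oxidation list, none of them members, 4 rose and 5 fell (median -0.005). Acat1, the mitochondrial acetoacetyl-CoA thiolase, rose (log2 fold change 0.32), while Etfrf1, a regulator of the electron transfer flavoprotein, and the acyl-CoA thioesterases Acot9 and Acot13 fell (-0.59, -0.56 and -0.48). Of 20 other peroxisomal oxidation genes, 7 rose and 2 fell (median 0.12), and of 16 peroxins, the proteins that build peroxisomes, 1 rose and 6 fell (median -0.08). Abcd2, a peroxisomal importer of very long-chain fatty acids, averaged 18.7 CPM in hypoxic-EV and 9.86 CPM in normoxic-EV (log2 fold change 0.92, SE 0.0977, adjusted p = 1.37e-07 by edgeR), and Cat, the peroxisomal catalase, had 0.71.

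Of 26 other droplet genes, 6 rose and 8 fell (median -0.10), with Lipa, the lysosomal acid lipase gene, at 0.67 and Pnpla8, a phospholipase gene, at -0.36. Of 20 uptake and binding genes, 5 rose and 3 fell (median 0.10). Angptl4, which encodes a secreted inhibitor of lipoprotein lipase, averaged 3.47 CPM in hypoxic-EV and 1.74 CPM in normoxic-EV (log2 fold change 1.01, SE 0.188, adjusted p = 0.000177 by edgeR), and in the authors' deposited table its log2 fold change was also 1.01. Cd36, the fatty acid translocase, fell by 0.16 on the log2 scale. Of 32 regulators, 11 rose and 5 fell (median 0.09). Pdk1, a kinase that closes the entry of pyruvate into the citric acid cycle, averaged 48.1 CPM in hypoxic-EV and 24.3 CPM in normoxic-EV (log2 fold change 0.98, SE 0.0831, adjusted p = 5.12e-09 by edgeR). The nuclear receptor genes Rxra and Esrra and the coactivator gene Ppargc1b had 0.55, 0.25 and 0.56, with overlapping groups for Esrra. The nuclear receptor gene Nr1h2 went the other way (-0.285, adjusted p = 0.00145 by edgeR), and Rxrb and Nr1h3 were not called. Ppara had 0 counts over the hypoxic-EV libraries and 1 over the normoxic-EV libraries, and Ppargc1a had 0 in both. Of these, Abcd2, Angptl4 and Pdk1 were named by size and the rest after their values were seen.

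**Figure D4:**
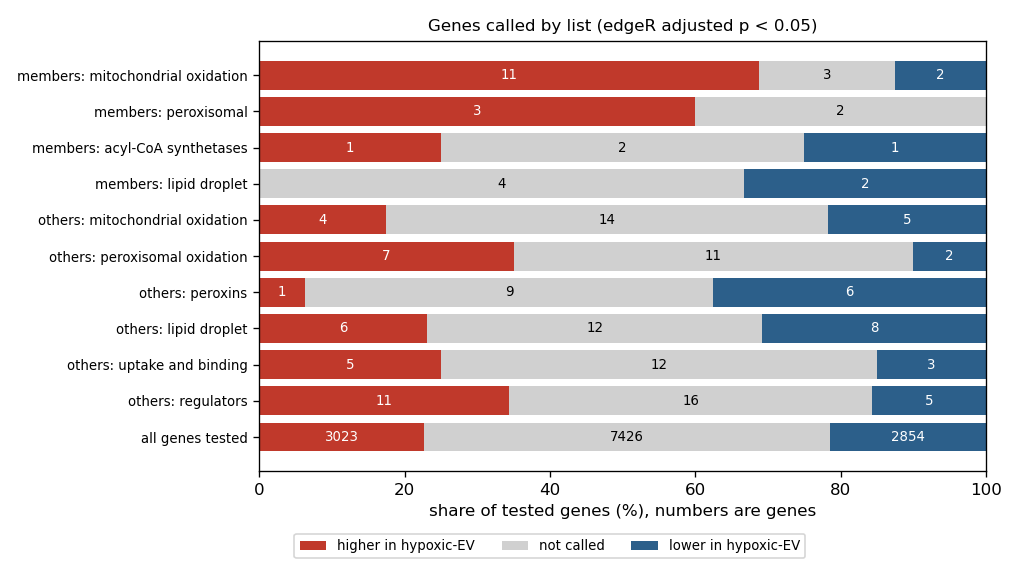
Share of tested genes (horizontal axis, percent) called higher, not called and called lower in hypoxic-EV by edgeR for classes of the 39 genes, for lists of other pathway genes and for all genes tested, with the number of genes printed in each segment. Mitochondrial members show 11 of 16 higher, other mitochondrial oxidation genes 4 of 23, and droplet members 0 of 6.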

How the data were processed

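Per the labels' protocols, poly(A) RNA was made into TruSeq libraries and sequenced from both ends (Illumina HiSeq). HISAT2, featureCounts, DESeq2 and GRCm39 are listed by the submitters' processing notes. Not given in the sources used here: versions, annotation, strand setting and the treatment of reads shared by genes. Per the deposited files, counts are whole numbers per gene, and the FPKM that the authors deposited equal them divided by the library total and a fixed length per gene. Their table of normalized counts, a signal per gene, was deposited too and was not needed here. The authors' deposited table of their comparison holds log2 fold changes, p-values and a test statistic, or score, for 462 genes.

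Here the counts of all 6 libraries were tested with edgeR 4.0.16 (R 4.3.3): filterByExpr (minimum count 10, minimum total 15) kept 13303 genes, TMM scaled the libraries, and the two-sided quasi-likelihood F-test compared hypoxic-EV with normoxic-EV, with Benjamini-Hochberg adjustment over all of them. CPM are TMM-scaled, and the SE is the log2 fold change divided by the square root of F. Library pairs of a group differed by a chi-square per degree of freedom of 2.72 to 5.84, more than counting noise, and each was counted as a sample. The fit was tested on simulated data. Alternatives were DESeq2 1.42.0, other scalings and filters, a replicate block, a minimum effect of 1.2-fold and leaving out each library. The members and lists were chosen with earlier results of these data known. Genes are given by library where they were called with an absolute log2 fold change of at least 0.5 or had the lowest p of their role. The same holds where they lost a call under an alternative other than the minimum effect, and others are given by choice. Pathway genes that are no members are named at an absolute log2 fold change of at least 0.8 and 1 CPM. Promoters are from RefSeq on GRCm38.p6, and gene positions from the deposited tables on GRCm39.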

Additional observations from a re-analysis of the deposited data

How the results depend on the processing

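Under other scalings (RLE, library totals) and a filter of at least 1 CPM in 3 libraries, all 36 tested members kept their call and direction. With DESeq2, without a filter on low counts, and with the replicate block, 35 of 36 kept their call, and the exception was Echs1, which left 1 mitochondrial gene lower in each of these 3. No other call of a member changed with the replicate block. Same-numbered libraries of the groups did not deviate together (Pearson r of -0.016, -0.018 and -0.018 across genes), so the numbers are not taken to pair samples.

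The minimum effect of 1.2-fold moved the counts most, by its construction: 8 members higher and 2 lower (27.8%, against 16.7% of all genes), with 5 mitochondrial genes higher and 0 lower, 1 peroxisomal gene higher, 1 droplet gene lower, and 9 higher and 6 lower among the other pathway genes. The members called there were Cpt1a, Hadh, Acaa2, Acads, Acadvl, Acox3, Acsl5, Lpl, Acsl4 and Dgat2.

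Without each library in turn, 15 to 17 members were higher and 4 to 6 lower, with 10 to 11 mitochondrial genes higher and 1 to 2 lower, 3 to 4 peroxisomal genes higher, 2 droplet genes lower, and 1 to 2 synthetase genes lower. The sign of Acsl1, Pnpla2, Hilpda, Dgat1 and Crat, none of them called, turned in at least 1 of these fits. Decr1, Ehhadh and Pparg had at most 3 counts in any library and were not tested. Of the tested members, Etfb and Dgat2 had the largest SE.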
